A study of Homo sapiens with 8 samples.

Results

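The genes described here are the integrin subunits and the core proteins that bind them on the cytoplasmic side in A375 cells, an established human metastatic melanoma line, left untreated or exposed to TNF. They comprise 38 genes, namely 18 alpha subunits, 8 beta subunits and 12 genes of kindlins and the cytoplasmic core (talins, the ILK, PINCH and parvin proteins, vinculin, paxillin and focal adhesion kinase). The rule takes them by gene symbol, and all 38 were found among the 60710 genes of the count table. Counts were high enough to be tested for 31 of them.

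Parental A375 cells, a line of a single tumor, were grown in DMEM with serum and seeded the day before the start. They were then left without treatment (NT, 4 libraries) or given 50 ng/mL human recombinant TNF (TNF, 4 libraries) and harvested at 24 hours. The 4 experiments were independent, and each gave an NT and a TNF library of the same date. The comparison addresses how TNF changes the adhesion receptors that these melanoma cells express.

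Integrins are heterodimers of an alpha and a beta chain that bind matrix proteins or counter-receptors on other cells. Talins and kindlins bind the beta chain tail and switch the receptor to its active form, and ILK, PINCH, parvins, vinculin, paxillin and focal adhesion kinase couple it to actin and to signaling. Alpha chains can be ordered by what they bind, since some dimers recognize collagens, some laminins, some the RGD sequence of fibronectin and vitronectin, and some are made mainly by leukocytes. In melanoma, integrins of the RGD and laminin classes are known for their part in invasion and attachment.

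The libraries held 30989755 to 44373224 counts. The cells had the melanocyte lineage genes SOX10 (1025 CPM in NT and 1177 CPM in TNF libraries) and MITF (21.0 and 22.0 CPM), whereas MLANA, PMEL, TYR and DCT lay under 1 CPM in all libraries, where CPM are counts scaled to the size of the library with TMM factors. S100B, another marker of the lineage, fell from 17.3 to 3.05 CPM without overlap (log2 fold change -2.50, edgeR adjusted p = 6.77e-06). Of 10 leukocyte markers, 7 were under 1 CPM in all libraries, with TYROBP at 0 counts in all of them. The summed level of the 10 was 21.2 to 26.6 CPM in NT and 23.0 to 26.8 CPM in TNF libraries. Most of it was CORO1A, at 16.1 CPM in NT and 17.5 CPM in TNF libraries. Within this list LCP2 rose from 0.840 to 3.25 CPM without overlap (edgeR adjusted p = 0.00051) and LYZ fell from 5.80 to 3.10 CPM with overlap (edgeR adjusted p = 0.047). The endothelial and platelet markers summed to 0.825 to 1.80 CPM in NT and to 2.12 to 3.43 CPM in TNF libraries. Among them PECAM1 rose from 0.312 to 2.30 CPM without overlap (log2 fold change 2.84, edgeR adjusted p = 6.9e-05). VWF went from 0.681 to 0.226 CPM without overlap but did not pass (edgeR adjusted p = 0.0514). CDH5 was at 0.166 and 0.113 CPM, and PF4 and GP9 had 0 counts in all libraries. The epithelial markers summed to 524 to 542 CPM in NT and 469 to 557 CPM in TNF libraries. KRT18 was at 504 CPM in NT and 493 CPM in TNF libraries and KRT8 at 25.4 and 21.9 CPM, whereas EPCAM and CDH1 were under 1 CPM. NT replicates 2 and 4 and TNF replicate 4 had the highest share of ribosomal, 7SK and 7SL RNA (0.0134% to 0.0139% of counts, against 0.00255% to 0.0043% in the other libraries), and the second principal component (17.2% of the variance) placed the replicate 4 libraries of both groups apart. Counts of members without these libraries are given below, and the part of the marker genes in the results was not tested.

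Expression was higher with TNF for 11 of the 31 members tested (35.5%) and lower for 5 (16.1%), while 15 did not pass edgeR's quasi-likelihood test at an adjusted p under 0.05. Over all 16186 genes tested, 14.5% were higher, 9.9% were lower and 24.4% passed in either direction, against 16 members (51.6%). A log2 fold change beyond 1 in either direction was reached by 9 of the members that passed (29.0%), against 8.01% of all genes. The median log2 fold change was 0.26 for the members and -0.0035 for all genes, and the median of its absolute value was 0.58 and 0.22. The direction of calls over all genes depended on the scaling, with 2345 higher and 1603 lower by TMM, 2045 and 2196 with upper-quartile factors and 1925 and 2514 with library totals. With those scalings the members had 11 higher and 6 lower. In the fit with the date of the experiment as a block, 15 members were higher and 7 lower, since 6 more members passed and 0 were lost, against 21.3% higher and 18.2% lower of all genes.

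By role, the receptor chains had calls in both directions and the cytoplasmic core in 1. Of 13 alpha subunits tested, 3 were higher and 4 lower, and of 7 beta subunits 1 was higher and 1 lower. Of 11 kindlins and core genes tested, 7 were higher and 0 lower in edgeR's test, as all 11 log2 fold changes were above 0, and those not called had log2 fold changes from 0.02 to 0.17. The difference between these groups of genes was not tested. A CPM is a share of the RNA of the whole culture, so more RNA per cell and more cells that express a gene cannot be told apart.

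**Figure D1:**
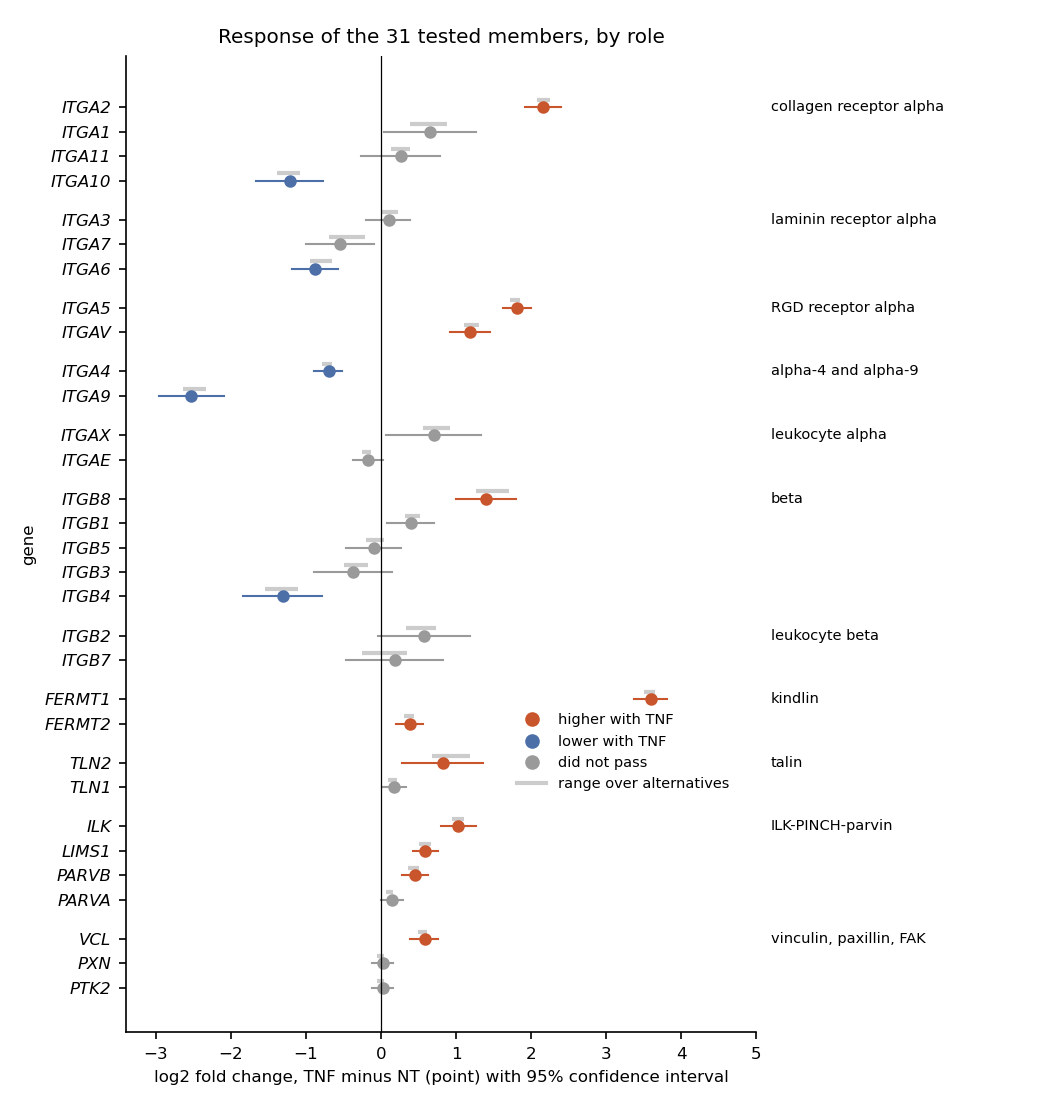
Log2 fold change (x axis, TNF minus NT, 4 libraries per group) of the 31 members tested, grouped by role, with 95% confidence intervals from edgeR as colored lines and, in gray above each, the range over up to 18 alternative analyses. Orange points were higher with TNF, blue points lower and gray points did not pass; FERMT1 stands at 3.60 and ITGA9 at -2.53.

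FERMT1 encodes kindlin-1, a coactivator of integrins that is typical of epithelia, and had the largest change of the members. It lies at chr20:6074845-6123214 on GRCh38 (minus strand, 15 exons). Its level was 41.2, 43.1, 46.7 and 50.0 CPM in NT replicates 1 to 4 and 547, 614, 488 and 540 CPM in TNF replicates 1 to 4. The lowest TNF library was far above the highest NT library, and the 4 libraries of each group lay close together. The log2 fold change was 3.60 (SE, the standard error, 0.10, edgeR adjusted p = 8.37e-09), or 12.1-fold (95% confidence interval 10.4 to 14.1). Among the 2345 genes higher with TNF it took position 105 by fold change.

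FERMT2, which encodes the widely expressed kindlin-2, changed far less. Its level was 27.6, 29.9, 30.4 and 34.1 CPM in the NT libraries and 37.1, 42.2, 39.0 and 40.8 CPM in the TNF libraries (log2 fold change 0.38, SE 0.08, edgeR adjusted p = 0.00666). The groups did not overlap, although NT replicate 4 came close to TNF replicate 1. FERMT3, the kindlin of blood cells, was too low to be tested, with 30 counts over all NT libraries and 59 over all TNF libraries. Per kilobase of the canonical transcript, FERMT1 made up 51.0% ± 0.696 (SD, n = 4) of the summed kindlin level in NT cells and 90.5% ± 0.713 (SD, n = 4) in TNF-treated cells, and FERMT2 went from 48.5% ± 0.737 to 9.33% ± 0.668 (SD, n = 4).

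Among the alpha chains that bind the RGD sequence, ITGA5 and ITGAV were both higher with TNF. ITGA5, the alpha chain of the main fibronectin receptor (chr12:54395261-54419266, minus strand, 30 exons), was at 213, 184, 187 and 197 CPM in the NT libraries and at 628, 726, 643 and 742 CPM in the TNF libraries. All TNF libraries were above all NT libraries, and TNF replicate 4 was the highest. The log2 fold change was 1.81 (SE 0.08, edgeR adjusted p = 2.64e-07), or 3.51-fold (95% confidence interval 3.08 to 3.99). ITGAV, the alpha chain shared by several vitronectin and TGF-beta binding dimers (chr2:186590010-186680901, plus strand), was at 44.1, 45.4, 39.1 and 38.8 CPM in NT and 97.4, 103, 108 and 72.0 CPM in TNF libraries. Here too the groups did not overlap, but TNF replicate 4 was the lowest TNF library (log2 fold change 1.19, SE 0.12, edgeR adjusted p = 5.41e-05). The RGD binding chains ITGA8 and ITGA2B, the latter the platelet chain, were too low to be tested, with at most 10 counts in any library.

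The collagen binding alpha chains did not move together. ITGA2, the collagen chain of platelets and epithelia (chr5:52989340-53094779, plus strand), was at 33.4, 29.7, 34.3 and 29.9 CPM in the NT libraries and 151, 141, 161 and 115 CPM in the TNF libraries. The groups were well separated, with TNF replicate 4 the lowest of its group. Its log2 fold change was 2.16 (SE 0.11, edgeR adjusted p = 4.58e-07), or 4.47-fold (95% confidence interval 3.78 to 5.28). ITGA10, a collagen chain known from cartilage, fell, from 6.80, 5.63, 4.60 and 6.63 CPM to 3.36, 2.61, 2.15 and 2.04 CPM, again without overlap (log2 fold change -1.22, SE 0.20, edgeR adjusted p = 0.00121). ITGA1 had a log2 fold change of 0.65 (SE 0.27, edgeR adjusted p = 0.121) and ITGA11, at 1.53 CPM in NT cells, of 0.26 (edgeR adjusted p = 0.498). ITGA1 overlaps PELO on the same strand, so that reads in their shared stretch can be assigned to either gene.

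ITGA1 depended on TNF replicates 1 and 4. Its level was 61.9, 54.5, 50.7 and 46.0 CPM in NT and 126, 79.7, 87.9 and 40.4 CPM in TNF libraries. The first 3 TNF libraries were above all NT libraries, whereas TNF replicate 4 was below all of them. Without TNF replicate 4 the log2 fold change was 0.88 (adjusted p = 0.00442 by edgeR), and without both libraries of the fourth experiment it was 0.81 (edgeR adjusted p = 0.0126). Without TNF replicate 1, the highest library, it was 0.38 (edgeR adjusted p = 0.322). DESeq2 called ITGA1 with all 8 libraries (log2 fold change 0.64, adjusted p = 0.0486).

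The laminin binding chains were lower or did not pass. ITGA6, the alpha chain that pairs with ITGB1 or ITGB4 to bind laminins (chr2:172427354-172506459, plus strand), was at 346, 378, 332 and 373 CPM in NT and 211, 210, 222 and 134 CPM in TNF libraries. The groups did not overlap and TNF replicate 4 was far below the other TNF libraries. It fell by 0.88 (log2) (SE 0.14, edgeR adjusted p = 0.00109), and by 0.74 without TNF replicate 4 (edgeR adjusted p = 2.39e-05). ITGB4, the partner of ITGA6 in hemidesmosomes (chr17:75721328-75757818, plus strand, 40 exons), was at 63.4, 39.2, 37.6 and 43.6 CPM in NT and 26.9, 14.1, 19.7 and 13.5 CPM in TNF libraries. Replicate 1 was the highest in both groups, and the groups did not overlap. It fell by 1.31 (log2) (SE 0.24, edgeR adjusted p = 0.00262), and without the 3 libraries richest in ribosomal RNA by 1.32 (edgeR adjusted p = 0.0573), which no longer passed.

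ITGA3, the other major laminin chain of these cells, was at 383 ± 24.6 CPM (SD, n = 4) in NT and 409 ± 81.8 CPM (SD, n = 4) in TNF libraries. The confidence interval of its fold change ran from 0.872 to 1.31 (edgeR adjusted p = 0.66). ITGA7, the laminin chain of muscle, went from 8.56 ± 2.76 to 5.85 ± 0.509 CPM (SD, n = 4; log2 fold change -0.55, edgeR adjusted p = 0.0768). It passed in 6 of 18 alternatives, among them the experiment date as a block (-0.50, edgeR adjusted p = 0.0271) and DESeq2 (-0.56, adjusted p = 0.038). Without NT replicate 4, its highest library, it had an adjusted p of 0.176 from edgeR.

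The closely related chains ITGA4 and ITGA9, which share ligands such as VCAM1, both fell. ITGA9 (chr3:37452115-37823507, plus strand) was at 47.3, 35.6, 26.3 and 26.8 CPM in the NT libraries and at 6.66, 4.91, 6.18 and 5.79 CPM in the TNF libraries. Even the lowest NT library was far above the highest TNF library, and the spread between NT libraries was wide. The log2 fold change was -2.53 (SE 0.20, edgeR adjusted p = 1.01e-05), a level 5.78-fold lower, at position 36 among the 1603 genes lower with TNF. ITGA4 was at 51.1, 49.7, 46.7 and 46.6 CPM in NT and 26.3, 30.0, 33.5 and 29.4 CPM in TNF libraries, with no overlap and little spread (log2 fold change -0.70, SE 0.08, edgeR adjusted p = 0.000156).

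Of the alpha chains typical of leukocytes, all but ITGAE were low or absent. ITGAE was at 11.7 CPM in NT and 10.4 CPM in TNF libraries (log2 fold change -0.18, edgeR adjusted p = 0.203) and ITGAX at 0.482 and 0.789 CPM (0.71, edgeR adjusted p = 0.103), and for both the 2 groups did not overlap. ITGAL and ITGAD had at most 4 counts in any library. ITGAM, the alpha chain of the macrophage complement receptor, had 0, 0, 1 and 1 counts in the NT libraries and 5, 22, 13 and 29 counts in the TNF libraries, which did not overlap but were too low for the filter.

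**Figure D2:**
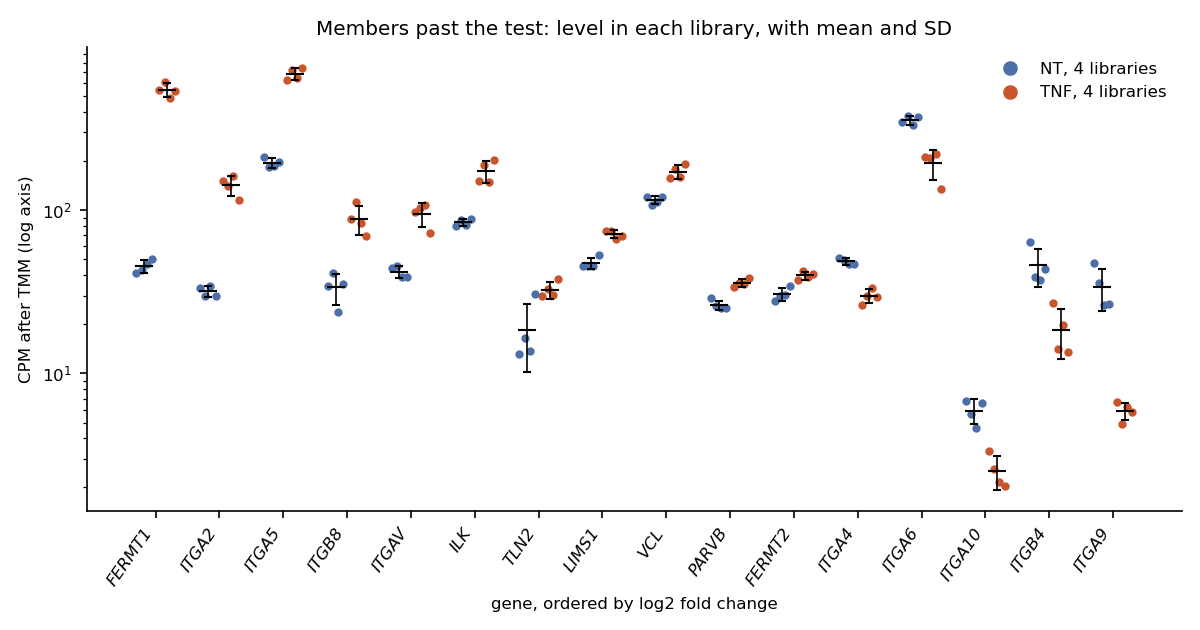
Level of the 16 members that passed the test in each library (points; CPM after TMM on a log axis), with the mean and SD of the 4 NT (blue) and 4 TNF (orange) libraries, ordered by log2 fold change. The groups overlap for TLN2, where NT replicate 4 reached 30.8 CPM, and for no other gene shown.

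Of the beta chains, ITGB8 was the only one higher with TNF in edgeR's test without the block, with which ITGB1 and ITGB2 passed as well. It pairs with ITGAV to bind latent TGF-beta and lies at chr7:20330702-20415754 (plus strand, 14 exons). Its level was 34.4, 41.3, 23.8 and 35.1 CPM in NT and 88.7, 113, 83.4 and 69.6 CPM in TNF libraries. All TNF libraries were above all NT libraries, and replicate 2 was the highest of both groups (log2 fold change 1.40, SE 0.18, edgeR adjusted p = 0.000267).

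ITGB1, the beta chain shared by most alpha chains, was at 244, 245, 223 and 194 CPM in NT and 332, 297, 347 and 216 CPM in TNF libraries. Each TNF library was above the NT library of its own date, but TNF replicate 4 was below 3 of the NT libraries. The log2 fold change of 0.40 (SE 0.14) did not pass in the unpaired test (edgeR adjusted p = 0.0652). It passed with the experiment date as a block (0.38, edgeR adjusted p = 0.00307), with DESeq2 (0.39, adjusted p = 0.0395) and without TNF replicate 4 (0.52, edgeR adjusted p = 0.00216). Without NT replicate 4 it was 0.32 (edgeR adjusted p = 0.16).

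ITGB3, the beta chain that joins ITGAV in the vitronectin receptor, was at 315, 245, 218 and 179 CPM in NT and 226, 181, 226 and 110 CPM in TNF libraries. It was lower with TNF in 3 of 4 pairs, and the groups overlapped widely. The log2 fold change of -0.37 (SE 0.23) did not pass (edgeR adjusted p = 0.306), whereas with the block it was -0.39 (edgeR adjusted p = 0.0358). ITGB3 shares its strand and part of its span with a read-through gene, so that some of its reads can be assigned to either. ITGB5, which also pairs with ITGAV, was at 171 ± 25.8 and 159 ± 34.3 CPM (SD, n = 4; edgeR adjusted p = 0.714, confidence interval of the fold change 0.724 to 1.2). The leukocyte chains ITGB2 and ITGB7 were at 1.55 and 0.963 CPM in NT cells and did not pass, with log2 fold changes of 0.57 and 0.18 (ITGB2 passed with the block, edgeR adjusted p = 0.0275), and ITGB6, the beta chain of epithelia, was too low to be tested.

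**Figure D3:**
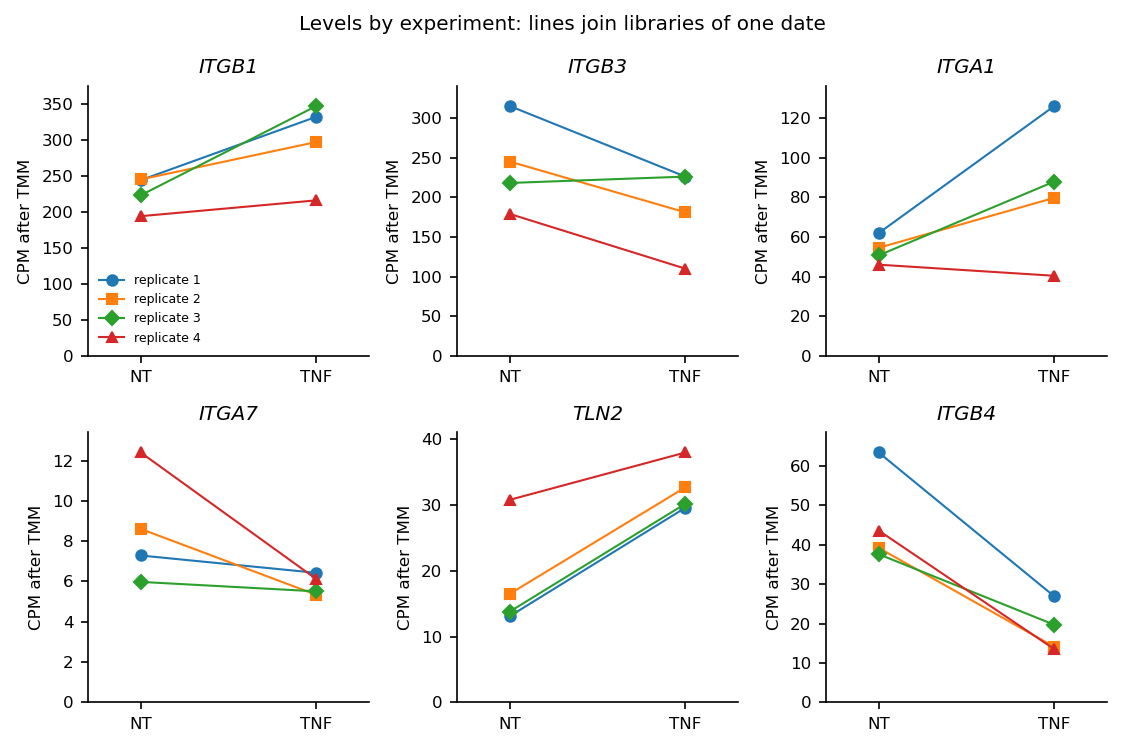
CPM after TMM (y axis, from 0) of 6 members whose result depended on the libraries or the pairing, with lines joining the NT and TNF library of one date. Replicate 4 (red triangles) is the lowest line for ITGB1, ITGB3 and ITGA1 and the highest for TLN2.

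TNF replicate 4 was the lowest of the TNF libraries for 12 of 20 integrin subunits tested (60.0%), for 2 of 11 kindlins and core genes (18.2%) and for 36.1% of all genes tested. Without both libraries of the fourth experiment, 13 members were higher and 5 lower, against 15.2% and 11.5% of all genes tested. Without the 3 libraries richest in ribosomal RNA, 14 were higher and 4 lower, against 12.8% and 8.33% of all genes tested.

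Levels can be compared between genes only per length, so CPM was divided by the length of the canonical transcript in kilobases, and each chain was expressed as a share of the summed level of its kind, as a description with no test. In NT cells the alpha chains were led by ITGA3, with 35.8% ± 1.27 (SD, n = 4), ITGA6, with 28.1% ± 1.87, and ITGA5, with 21.0% ± 0.996. In TNF-treated cells ITGA5 led with 49.4% ± 6.79 (SD, n = 4; range 43.6% to 58.8%), followed by ITGA3 with 25.4% ± 3.85 and ITGA6 with 10.1% ± 1.61. The order of ITGA5 and ITGA6 was thus exchanged in every library, as NT libraries had 19.5% to 21.7% ITGA5 against 25.8% to 29.8% ITGA6. ITGA2 went from 1.86% ± 0.172 to 5.51% ± 0.532 and ITGAV from 2.72% ± 0.149 to 4.10% ± 0.489 (SD, n = 4), so that ITGAV ranked below ITGA4 (3.27% ± 0.0572) in NT cells and above it (1.34% ± 0.158) with TNF. ITGA1 kept a similar mean share, at 2.26% ± 0.209 and 2.34% ± 0.907.

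ITGB1 led the beta chains in both groups. It made up 40.2% ± 2.39 of the summed beta level in NT and 49.7% ± 1.86 in TNF libraries, ITGB3 26.3% ± 2.38 and 19.1% ± 2.03, and ITGB5 25.3% ± 0.873 and 22.2% ± 1.22 (SD, n = 4). The shares of ITGB3 and ITGB5 overlapped within each group, so their order was not resolved. ITGB8 and ITGB4 exchanged places below them, with ITGB8 going from 2.50% ± 0.615 to 6.24% ± 1.22 and ITGB4 from 5.13% ± 0.98 to 1.95% ± 0.423 (SD, n = 4). The summed level per kilobase of the alpha chains was 219 ± 9.62 in NT and 328 ± 21.0 in TNF libraries (SD, n = 4), and that of the beta chains 152 ± 22.7 and 161 ± 33.9 (SD, n = 4), with the TNF libraries of the latter ranging from 112 to 185.

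**Figure D4:**
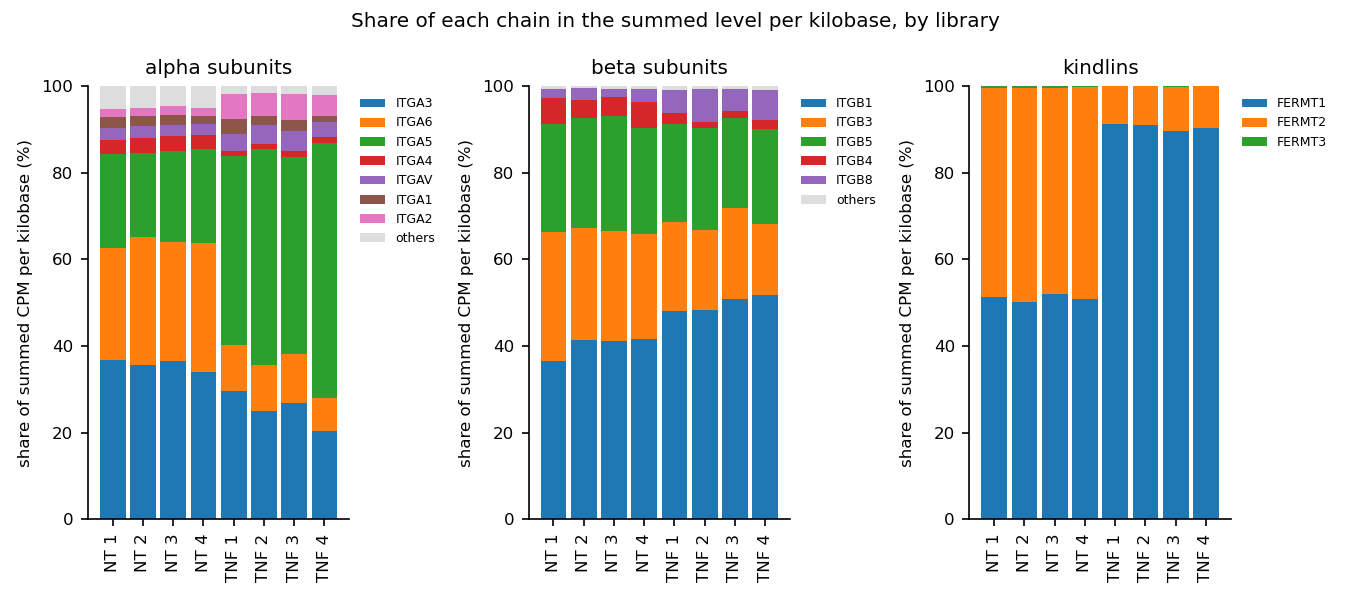
Share of each chain in the summed CPM per kilobase (y axis, percent) of alpha subunits, beta subunits and kindlins in each of the 8 libraries; chains under 2% in both groups are pooled as others. ITGA5 rises from 21.0% to 49.4% of the alpha chains and FERMT1 from 51.0% to 90.5% of the kindlins.

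In the cytoplasmic core, ILK, the pseudokinase at the center of the complex with PINCH and parvin, changed most after FERMT1. ILK (chr11:6603708-6610874, plus strand, 13 exons) was at 80.3, 87.5, 81.2 and 88.7 CPM in NT and 151, 188, 149 and 203 CPM in TNF libraries. The NT libraries were tightly grouped, the TNF libraries less so, and the groups did not overlap (log2 fold change 1.03, SE 0.11, edgeR adjusted p = 5.28e-05). ILK overlaps TAF10 on the opposite strand, and the library kit marks strand.

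Of the partners of ILK, LIMS1 and PARVB were higher by smaller amounts and PARVA did not pass. LIMS1, which encodes PINCH-1, was at 45.7, 45.7, 45.4 and 52.8 CPM in NT and 74.8, 74.6, 66.6 and 69.2 CPM in TNF libraries (log2 fold change 0.59, SE 0.08, edgeR adjusted p = 0.000267). NT replicate 4 stood above 3 nearly equal NT libraries but below all TNF libraries. LIMS1 has the related copies LIMS3 and LIMS4, between which reads could be split, so its level is uncertain. Such a split was not tested. PARVB, which encodes beta-parvin, was at 28.8, 25.7, 25.3 and 25 CPM in NT and 33.9, 35.6, 35.3 and 38.4 CPM in TNF libraries, again without overlap (log2 fold change 0.45, SE 0.08, edgeR adjusted p = 0.00163). Its first part overlaps SAMM50 on the same strand. PARVA, which encodes alpha-parvin, was at 83.4 ± 3.31 and 92.4 ± 4.49 CPM (SD, n = 4), a log2 fold change of 0.15 that did not pass (edgeR adjusted p = 0.138) except with the block (0.15, edgeR adjusted p = 0.0336).

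VCL, which encodes vinculin, the protein that reinforces the link of talin to actin (chr10:73995193-74121363, plus strand), was at 121, 107, 113 and 121 CPM in NT and 158, 180, 160 and 191 CPM in TNF libraries. All TNF libraries were above all NT libraries (log2 fold change 0.58, SE 0.08, edgeR adjusted p = 0.000462). PXN, which encodes paxillin, and PTK2, which encodes focal adhesion kinase, had log2 fold changes of 0.02 each (edgeR adjusted p = 0.839 and 0.849). The confidence intervals of their fold changes ran from 0.923 to 1.12 for PXN and from 0.918 to 1.12 for PTK2.

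The talins differed in level and in how firm the result was. TLN1, the talin of most tissues, was at 672 ± 28.9 CPM (SD, n = 4) in NT and 757 ± 44.1 CPM (SD, n = 4) in TNF libraries, without overlap, and its log2 fold change of 0.17 passed only with the block (edgeR adjusted p = 0.109 without and 0.0208 with it). TLN2 was at 13.1, 16.5, 13.8 and 30.8 CPM in NT and 29.6, 32.7, 30.2 and 38 CPM in TNF libraries. NT replicate 4 was higher than 2 of the TNF libraries, and the groups overlapped. The log2 fold change was 0.82 (SE 0.25, edgeR adjusted p = 0.0343). Without NT replicate 4 it was 1.16 (edgeR adjusted p = 0.000109), whereas without any other library the adjusted p from edgeR ran from 0.0563 to 0.0899, and it was 0.176 with no filter on low counts.

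Promoter windows from 250 bases before to 50 bases after a RefSeq start (GRCh38.p14) were held for 26 of the 38 members (37 windows). They were searched on both strands for the NF-kB consensus, the site of the factor activated by the TNF receptor, and the AP-1 motif TGANTCA. A gene counted if any of its windows held a match, and the numbers of windows per gene were not compared. The NF-kB consensus was found for 11 of 26 members (42.3%), against 13.3% of all genes with such a window and 17.2% of those tested here. By outcome, it was found for 5 of 10 members that were higher, 1 of 3 that were lower and 4 of 8 that did not pass. AP-1 matches were found for 3 members (11.5%, against 9.37% of all genes), among them ITGA5, where the match spans bases -6 to 1 around the start and does not overlap the NF-kB match. The stretches before the start are shown for the 4 higher members whose NF-kB match lies there. Bases annotated as untranslated were left out, except for ITGB8. Its match overlaps such bases and is shown with 10 bases on each side. Capitals mark the match, and each stretch is written 5′ to 3′ on the strand of the gene. They are ITGA5 at chr12:54419267-54419516 (minus strand), ITGB8 at chr7:20330803-20330832, VCL at chr10:73997866-73998113 and PARVB at chr22:44068856-44069060 (plus strand), of which all but the ITGA5 stretch precede a RefSeq start that lies inside the GENCODE span of the gene.
ITGA5: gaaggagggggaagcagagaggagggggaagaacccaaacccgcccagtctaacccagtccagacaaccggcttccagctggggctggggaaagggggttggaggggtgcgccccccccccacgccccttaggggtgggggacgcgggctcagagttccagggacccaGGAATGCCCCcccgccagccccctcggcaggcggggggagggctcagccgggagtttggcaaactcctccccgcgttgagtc
ITGB8: ccgcaggtctGGAGCCCCCCggggggccag
VCL: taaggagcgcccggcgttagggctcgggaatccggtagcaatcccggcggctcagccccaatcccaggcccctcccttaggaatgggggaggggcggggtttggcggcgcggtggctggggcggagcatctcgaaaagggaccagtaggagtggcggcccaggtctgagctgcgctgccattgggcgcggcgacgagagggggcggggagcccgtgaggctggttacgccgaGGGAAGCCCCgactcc
PARVB: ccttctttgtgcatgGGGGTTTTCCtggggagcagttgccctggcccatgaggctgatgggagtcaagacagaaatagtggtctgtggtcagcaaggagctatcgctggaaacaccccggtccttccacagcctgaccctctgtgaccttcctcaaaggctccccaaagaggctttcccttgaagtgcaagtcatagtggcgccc
Counted from the start, the first base of the match was at -82 for ITGA5, -87 for ITGB8, -18 for VCL and -235 for PARVB. A match in these letters is not a measured binding site. The 4 genes shown had log2 fold changes from 0.45 (PARVB) to 1.81 (ITGA5). ILK, also higher, carried a match from base 11, and ITGA10, which was lower, carried matches from bases -125 and 39. ITGA1, TLN1, ITGB1 and ITGA11, which did not pass, and FERMT3, which was not tested, carried one too.

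The wider adhesome, the proteins that assemble at integrin adhesions, was followed through 58 genes of talin, vinculin, paxillin and focal adhesion kinase partners, actin linkers, integrin regulators and traffic proteins. Of 56 tested, 19 were higher with TNF (33.9%, against 14.5% of all genes) and 7 lower (12.5%, against 9.9%), with a median log2 fold change of 0.06. LPXN, which encodes leupaxin, a paxillin relative, was at 30.9 to 69.9 CPM in NT and 183 to 304 CPM in TNF libraries (log2 fold change 2.27, SE 0.26, edgeR adjusted p = 0.000163). PTPN12, a phosphatase that acts on paxillin and p130Cas, differed by a log2 fold change of 1.22 (adjusted p = 1.64e-06 by edgeR), and PDLIM7, a LIM protein of actin fibers, of 0.85 (edgeR adjusted p = 2.41e-05). FHL2, another LIM protein, had 0.75 (edgeR adjusted p = 0.000701). NEDD9, a scaffold of the p130Cas family, was at 17.2 to 30.6 CPM in NT and 25.3 to 49.7 CPM in TNF libraries, which overlapped (log2 fold change 0.77, edgeR adjusted p = 0.0297, and up to 0.0951 without 1 library and 0.169 with no filter). TNS1, which encodes tensin-1, fell from 3.11 to 5.0 CPM to 1.52 to 1.95 CPM (log2 fold change -1.05, edgeR adjusted p = 0.00299). The paxillin relative and the paxillin phosphatase were thus among the larger changes, while PXN itself was at 499 CPM in NT and 507 CPM in TNF libraries.

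Of 34 genes of integrin ligands, 25 were tested, 12 were higher with TNF (48.0%, against 14.5% of all genes) and 2 were lower (8.0%, against 9.9%), with a median log2 fold change of 0.39. LAMB3, the beta chain of the laminin of epithelial basement membranes, was among the larger rises. It was at 18.5 to 22.3 CPM in NT and 277 to 520 CPM in TNF libraries (log2 fold change 4.19, SE 0.21, edgeR adjusted p = 5.83e-07). LAMA3, the alpha chain of this laminin, was at 1.15 and 1.16 CPM and did not pass (edgeR adjusted p = 0.987). LAMA3 and, in the next paragraph, VCAM1 were picked after their values were seen. LAMA4, an alpha chain of the laminins of vessel walls, fell by 0.85 (log2) (edgeR adjusted p = 0.00282). Beside these laminin chains, the laminin receptor chains ITGA6 and ITGB4 were lower with TNF, at 194 and 18.5 CPM. ITGA3, the laminin binding alpha chain with the highest level, did not pass (409 CPM in TNF libraries, log2 fold change 0.10, edgeR adjusted p = 0.66), nor did ITGA7.

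FN1, the fibronectin gene and the ligand of the ITGA5 dimer, was at 332, 253, 359 and 216 CPM in NT and 1027, 562, 1170 and 402 CPM in TNF libraries. The groups did not overlap, but replicates 1 and 3 were higher than replicates 2 and 4 in both (log2 fold change 1.45, SE 0.32, edgeR adjusted p = 0.00921, 0.0744 with no filter). CCN1, a matricellular ligand of ITGAV dimers, differed by a log2 fold change of 0.90 (adjusted p = 0.0215 by edgeR, 0.0663 without TNF replicate 1 and 0.0589 without TNF replicate 3). ICAM1, the counter-receptor of ITGB2 dimers on leukocytes, was at 35.7 to 44.8 CPM in NT and 514 to 627 CPM in TNF libraries (log2 fold change 3.82, SE 0.11, edgeR adjusted p = 8.37e-09), whereas VCAM1, the ligand of the ITGA4 and ITGA9 chains, was too low to be tested, at 0.00683 and 0.013 CPM.

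**Figure D5:**
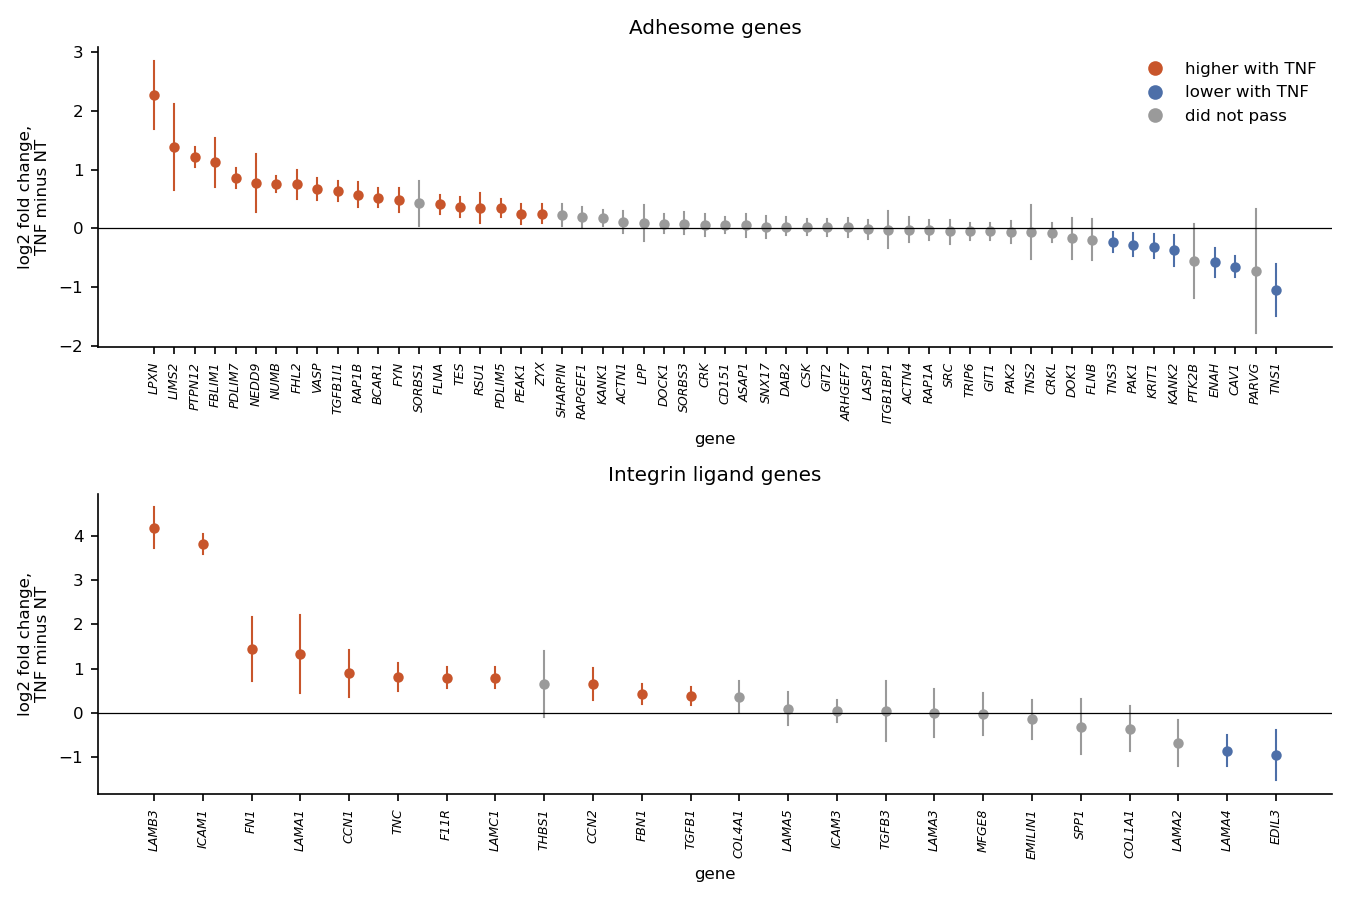
Log2 fold change (y axis, TNF minus NT) with 95% confidence interval of the 56 adhesome genes tested (top) and 24 of the 25 integrin ligand genes tested (bottom), in order of size. Orange marks genes higher with TNF (19 and 11 shown), blue those lower (7 and 2) and gray those that did not pass.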

How the data were processed

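RNA of A375 cells was sequenced in 8 libraries, 4 NT and 4 TNF. The authors prepared stranded libraries of polyadenylated RNA, used Bowtie2 (version not given in the sources used here) for alignment to transcripts of GRCh38, and ran RSEM 1.2.25 on the alignments. Each deposited value is an expected count that the authors left without normalization. Counts were rounded (0.000138% of the total), filtered with edgeR's filter (minimum count 10, total 15), scaled by TMM and fitted in edgeR 4.0.16 by its robust quasi-likelihood method, with treatment alone in the model, in R 4.3.3, with Benjamini-Hochberg adjustment over 16186 genes and a threshold of 0.05. DESeq2 1.42.0, the study's tool, and limma 3.58.1 (voom) were alternatives, as were other scalings and filters, the date block, stricter thresholds and leaving out libraries. Scripts were tested on simulated data.

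Groups came from the treatment label and replicate numbers from the dates in the titles. Each NT record carries, in its own file, counts that belong to an NT library of a different date, so the table of the whole series was used, whose columns match the titles. The numbers thus pair libraries by the date in their titles. Libraries of 1 date deviated together from their group means (correlations of 0.35, 0.17, 0.24 and 0.46 over 16186 genes). Libraries of different dates were not compared in this way, so these values do not show that the pairing by date is the right one.

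Positions and canonical transcript lengths are from GENCODE release 44 on GRCh38. The members and gene lists were chosen with earlier results of these data known. All 38 members are accounted for. Members past the test whose mean log2 CPM reached 1 are given in every library, as are some others whose calls depended on a library, and up to 6 genes each of the adhesome and ligand lists with the largest change past the test are named, except for genes not reported here. Protein sequences were not used here.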

Additional observations from a re-analysis of the deposited data

Results flagged for a closer look

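In 3 of the 86 groups of 4 libraries examined, a single library stood apart from the other 3 by Dixon's criterion, where 4.3 would be flagged by chance. ITGA6 in TNF replicate 4 had a log2 CPM of 7.07, against 7.72 to 7.79 in the other TNF libraries. LIMS1 in NT replicate 4 had a log2 CPM of 5.72, against 5.51 to 5.52 in the other NT libraries. TNS1 in NT replicate 3 had a log2 CPM of 2.34, against 1.66 to 1.74 in the other NT libraries. ITGA6 and TNS1 stood on the side that makes their fall larger and LIMS1 on the side that makes its rise smaller.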

How the results depend on the processing

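Of the 16 members that passed the test, 14 (10 higher, 4 lower) stayed past the threshold in each of the up to 18 alternatives that tested them. TLN2 and ITGB4 were the exceptions, and 0 changed direction. The share of all genes past the test that stayed so was not counted, so the members cannot be set against it. The date as a block changed no call of a member other than the 6 gained (ITGA7, ITGB1, ITGB2, ITGB3, TLN1 and PARVA). Over all genes the block gave 3451 higher and 2946 lower. With the fold change threshold of 1 added, the counts higher and lower were 6 and 3 for members, 4 and 1 for adhesome genes and 5 and 0 for ligand genes (the lowest log2 fold change of a tested ligand gene was -0.94). Over all 16186 genes tested they were 909 and 387. At an adjusted p under 0.01 adhesome genes lower fell to 3 of 56 and ligand genes lower to 1 of 25, against 772 of 16186 genes. Without 1 library each, adhesome genes lower ranged from 3 to 7 and ligand genes lower from 1 to 3, against 6.79% to 11.4% of all genes. The cause was not tested. Fewer libraries, low counts (7 members not tested) and reads shared with copies or overlapping genes limit what these data resolve.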
